A study of Mus musculus with 18 samples.

Results

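The loss of Htr3a was followed here as 1 average over development. All 18 arrays of the series entered (18 of 18). The 9 Htr3a-KO arrays were set against the 9 control arrays, and the effect on a gene was the mean of its 3 within-stage differences at E14.5, E18.5 and P2, each stage with equal weight. Cells were GFP-positive cortical interneurons sorted from GAD65-GFP mice, labelled as born in the caudal ganglionic eminence (CGE). Control animals carried GAD65-GFP alone, and knockout animals carried Htr3a-KO;GAD65-GFP, so the reporter was shared by both genotypes. Each of the 6 groups had 3 arrays from 3 litters, with 4 or more brains pooled per array, so every value is an average over animals. The stages stand for cells that migrate tangentially (E14.5), enter the cortical plate (E18.5) and settle in the cortex (P2). The strain, the zygosity and the construction of the Htr3a allele are not given in the sources used here.

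Htr3a encodes the subunit that every serotonin type 3 receptor needs, the serotonin receptor that is itself a cation channel. In the cortex it marks the interneurons of the CGE, which settle mostly in superficial layers and include the Vip, Reln and neurogliaform classes. Serotonin reaches the embryonic cortex early, and activity through this receptor acts on how these cells migrate and where they stop. An average over stages favours RNA that differs in the same direction from migration to settling, although a large difference at part of the stages can also carry it. It hides RNA that differs in opposite directions at different stages, and the latter genes are described separately.

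Averaged over the 3 stages, 42 of 14292 genes passed an adjusted p of 0.05 in limma (0.294%). Of these, 23 were higher in Htr3a-KO (0.161% of genes tested) and 19 lower (0.133%). Apart from Htr3a itself the largest rises were in the classical MHC class I genes H2-K1 and H2-D1, the thyroid hormone transporter gene Slco1c1 and the mitochondrial synthetase gene Lars2. The largest falls were in the ubiquitin ligase gene Mid1, the ribosomal protein gene Rps25 and the exosome nuclease gene Dis3l. Most changes were small. A total of 4 rises and 2 falls reached 2-fold, 8 rises and 6 falls lay between 1.5-fold and 2-fold, and 11 rises and 11 falls were under 1.5-fold, with a median size of 0.55 log2 units over the 42 genes. After a further quantile normalisation of the arrays the split was 24 higher and 13 lower. It also moved with the arrays used, to 88 higher and 40 lower without E14.5 control array 3 and to 1 higher and 6 lower without the E18.5 arrays.

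All 42 genes had 3 within-stage differences of one sign, which 29% of the genes tested also had. One sign does not mean equal size. In an F test between stages 4 of the 42 had an unadjusted p under 0.05, as did 7.23% of all genes. These were Htr3a, Pop1 (-0.80, -0.09 and -0.08 in stage order), Klf15 (0.10, 0.78 and 0.78) and Arpp19 (-0.09, -0.51 and -0.33). For 24 of the 42 the Htr3a-KO and control arrays did not overlap at any stage, against 33 of all genes tested (0.231%). At an unadjusted p under 0.05 the number of genes was 1600 (11.2%), of which 573 were higher (4.01% of genes tested) and 1027 lower (7.19%), and 62% of all genes had a negative difference. The counts of list members at this p are to be read against these shares. The lists were written with earlier results of these data known, so a list that stands apart from these shares is a description and no test. Replicates came from separate litters, so the p-values measure the spread between pooled litters.

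**Figure D1:**
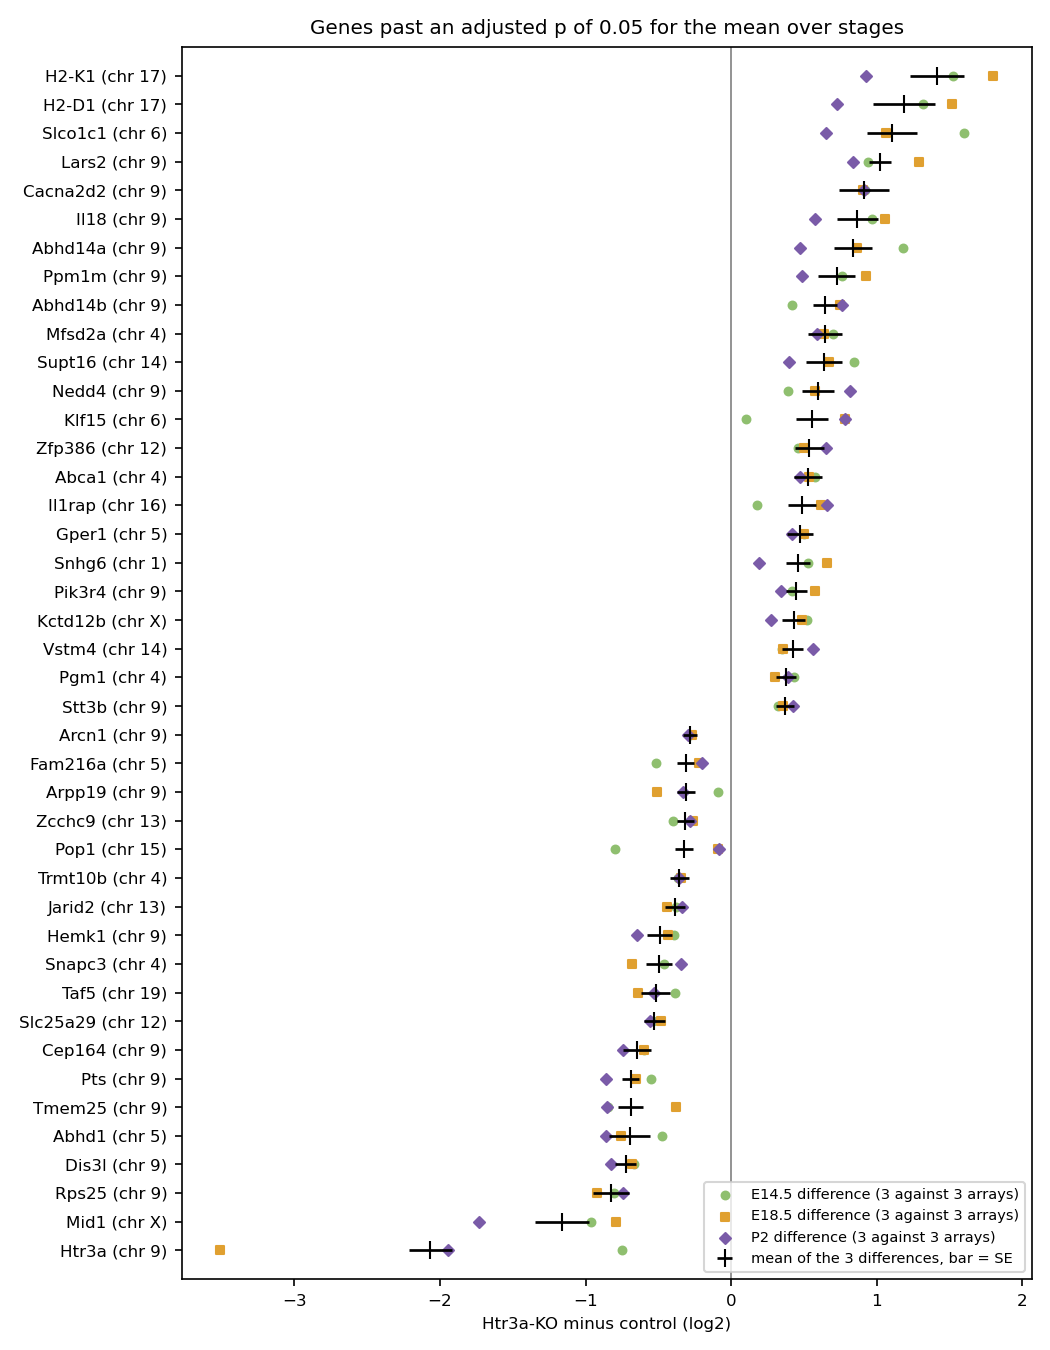
Htr3a-KO minus control difference (log2, horizontal axis) of the 42 genes that passed, ordered by size, with each gene's chromosome. Black marks are the mean of the 3 stage differences with its SE, and coloured points are the single stages: for every gene all 3 points lie on the same side of 0, from -2.07 for Htr3a to 1.42 for H2-K1.

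Array-wide measures differed little between the genotypes. Array medians spanned 6.35 to 6.46 log2 units and differed by 0.02 between genotypes (exact permutation within stages, two-sided, p = 0.052). The 3' to 5' differences of Gapdh and actin, which rise as RNA degrades, differed by 0.06 and 0.07 (exact permutation, p = 0.469 and p = 0.453). Arrays of one group correlated at 0.974 to 0.995, and arrays of different groups at 0.891 to 0.994. Gad1 and Gad2, which make GABA, and the CGE factors Nr2f1, Nr2f2 and Sp8 were above the filter, but so was Neurod6 of excitatory neurons (8.91 to 12.38 in the 18 arrays). Sex-linked RNA set a pair of arrays apart: Xist read 7.87 in E14.5 Htr3a-KO array 2, and the Y-linked Eif2s3y 4.07 in E18.5 control array 2. Without both arrays 28 genes passed, 11 higher and 17 lower.

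The targeted gene, Htr3a, fell 4.19-fold in the mean (difference -2.07, SE 0.15, adjusted p = 3.99e-06). The 9 control arrays ranged from 7.65 to 10.79 with a median of 8.64, and the 9 Htr3a-KO arrays from 6.61 to 7.41 with a median of 7.01. Every Htr3a-KO array was below every control array, also across stages, and no regrouping of arrays within stages gave a larger mean difference (p = 0.00025 by an exact two-sided permutation, which is the smallest value that 8000 regroupings allow). The mean was made of unequal parts, -0.75 at E14.5, -3.51 at E18.5 and -1.94 at P2. Htr3a levels in controls were highest at E18.5 and lowest at E14.5, whereas the knockout arrays lay at 7.41 or below at every stage. The difference between stages did not pass for Htr3a (interaction adjusted p = 0.0900). A single probe set measured the gene, and where it lies against the deleted part is not given in the sources used here.

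Of the 42 genes, 5 separated the genotypes so fully that all 9 Htr3a-KO arrays stood on one side of all 9 control arrays, whatever the stage. These were Htr3a, Pts, Dis3l, Rps25 and Lars2, and no other of the 14292 genes did so (0.035%). All 5 are on chromosome 9.

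Lars2, the mitochondrial leucyl-tRNA synthetase, rose 2.03-fold (difference 1.02, SE 0.08, adjusted p = 3.99e-06). Its control arrays were tightly grouped at 7.51 to 7.69 (median 7.56), and its Htr3a-KO arrays spanned 8.26 to 8.94 (median 8.66). The lowest knockout array was above the highest control array of any stage. Lars2 was the 1 gene of 23 mitochondrial translation genes tested that passed, and the median of the list was -0.07, against -0.03 over all genes. At an unadjusted p under 0.05 Iars2, another synthetase gene, was higher (0.19, adjusted p = 0.295), and Wars2 (-0.15) and Tufm (-0.16) were lower. The rise also rested on 1 probe set, as the other 2 for this gene gave 0.01 and -0.28.

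Pts, which makes the precursor of tetrahydrobiopterin, the cofactor that tryptophan hydroxylase needs for serotonin, fell 1.61-fold (difference -0.69, SE 0.06, adjusted p = 1.69e-05). Control arrays read 8.80 to 9.17 (median 8.98) and Htr3a-KO arrays 8.07 to 8.62 (median 8.24). Dis3l, the nuclease of the cytoplasmic RNA exosome, fell 1.65-fold (difference -0.72, SE 0.07, adjusted p = 0.000159). Its control arrays lay at 7.62 to 8.10 and its Htr3a-KO arrays at 6.94 to 7.41. In stage order the differences were -0.55, -0.66 and -0.86 for Pts and -0.67, -0.68 and -0.82 for Dis3l.

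Rps25, a protein of the small ribosomal subunit, fell 1.77-fold (difference -0.82, SE 0.12, adjusted p = 0.0103). Control arrays ranged from 9.41 to 10.12 and Htr3a-KO arrays from 8.47 to 9.37, so the genotypes were apart by a narrow margin. Rps25 was the 1 of 28 cytosolic ribosomal protein genes tested that passed. The median of that list was 0.02.

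**Figure D2:**
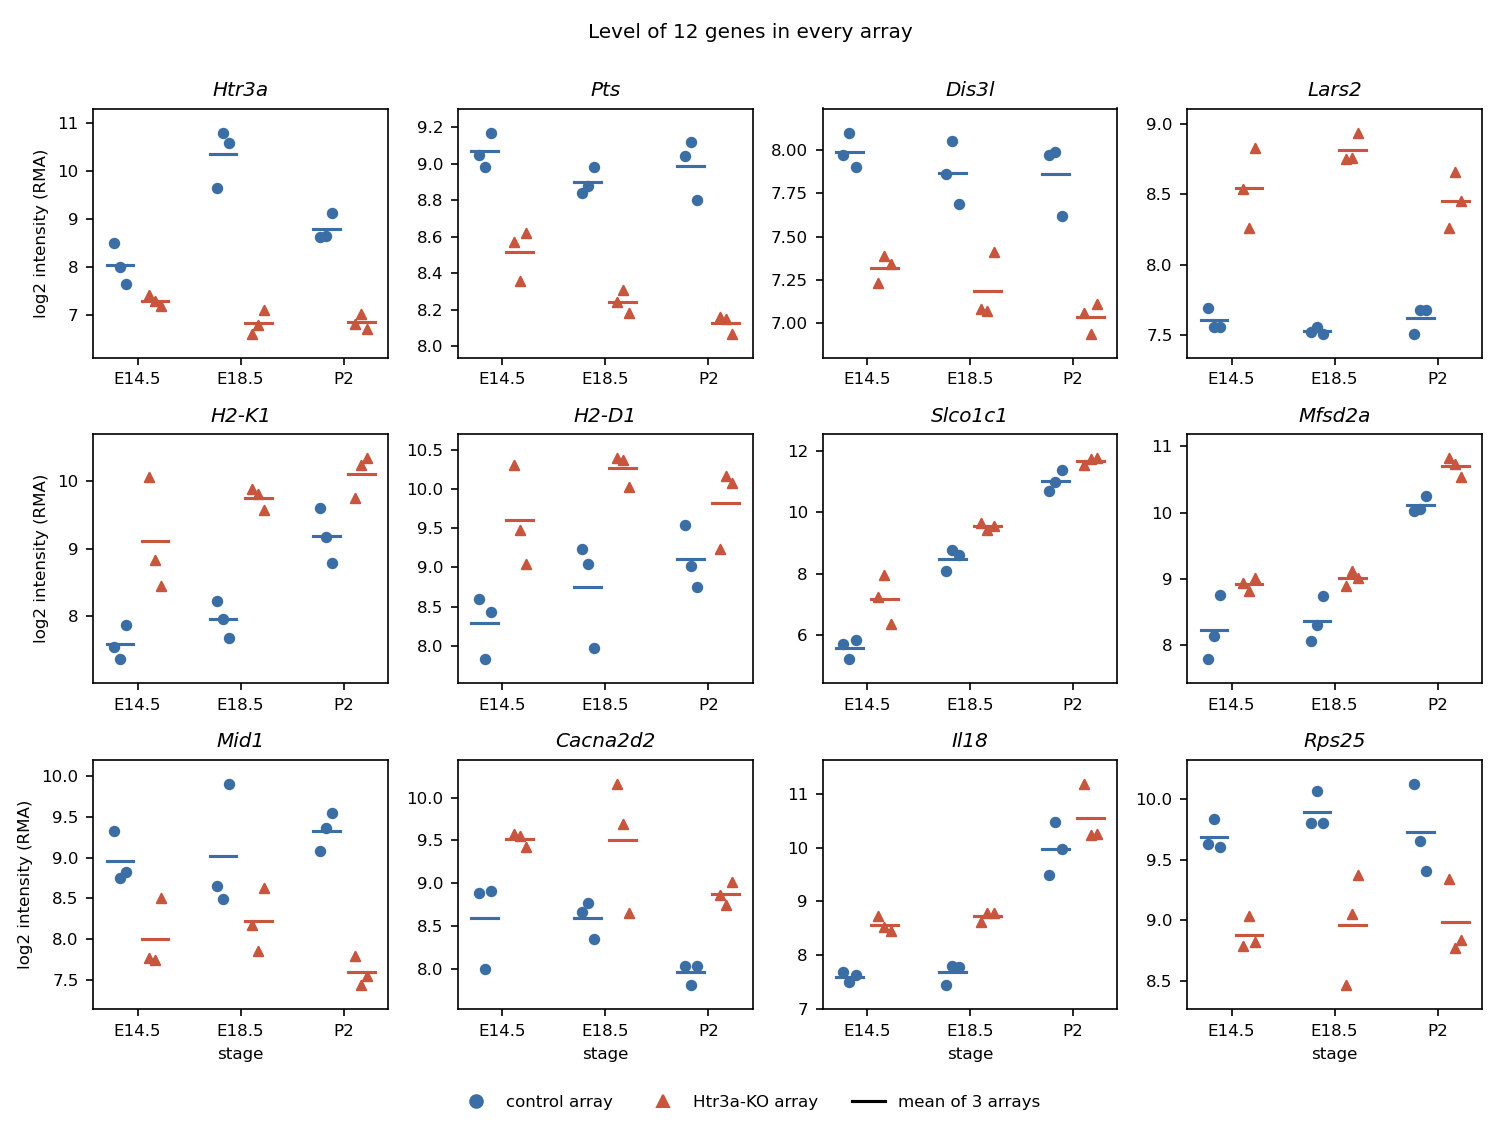
Level of 12 genes (log2 intensity, vertical axes, a separate scale for each gene) in every array by stage, with circles for the 9 control arrays, triangles for the 9 Htr3a-KO arrays and bars for the mean of 3 arrays. In Htr3a, Pts, Dis3l, Lars2 and Rps25 the genotypes are apart across all stages, while Slco1c1, Mfsd2a and Il18 climb with stage in both genotypes and the difference is seen within each stage.

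Chromosome 9, which carries Htr3a, held 18 of the 42 genes. That is 2.25% of its 800 tested genes, against 0.178% (24 of 13492) elsewhere. Chromosome 4 came next with 5 genes, then chromosome 5 with 3. Within 5 Mb of Htr3a 7 of 90 tested genes passed (7.78%), and within 20 Mb 8 of 291 (2.75%), Htr3a among them. Beyond 40 Mb there were 8 of 315 (2.54%). The windows were counted from gene order in the RefSeq table of GRCm38.p6, and the build of the array's own annotation is not named. No test was made of these shares, as neighbouring genes are not independent.

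The called genes near Htr3a were mostly lower and the distant ones mostly higher. Within 20 Mb 7 genes fell, Htr3a itself among them, and 1 rose, and beyond 40 Mb 7 rose and 1 fell. On one side lay Rps25, Arcn1 (a coatomer subunit of Golgi transport, -0.28), Tmem25 (a membrane protein, -0.69, adjusted p = 0.00143) and Cep164 (needed to build cilia, -0.65, adjusted p = 0.00704). On the other side came Pts and Il18, which are next to each other in the order of tested genes and moved in opposite directions. Il18, a pro-inflammatory cytokine, rose 1.82-fold (difference 0.87, SE 0.14, adjusted p = 0.0148). At E14.5 the knockout values were 8.73, 8.52 and 8.45 against 7.68, 7.49 and 7.62 in controls, and at E18.5 they were 8.62, 8.79 and 8.78 against 7.44, 7.80 and 7.78. At P2 they were 11.19, 10.24 and 10.25 against 9.49, 10.49 and 9.98, where the genotypes overlapped.

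A second group of chromosome 9 genes lay far from Htr3a and close to one another. Abhd14a and Abhd14b, neighbours that encode hydrolase-fold proteins, rose by 0.84 (SE 0.13, adjusted p = 0.0130) and 0.64 (SE 0.08, adjusted p = 0.00241). Abhd14b read 6.11 to 6.67 in controls and 6.61 to 7.46 in Htr3a-KO, with no overlap at any stage. In the same stretch Ppm1m (a protein phosphatase, 0.72, adjusted p = 0.0282), Pik3r4 (a subunit of the phosphoinositide kinase of autophagy, 0.45) and Cacna2d2 also rose, and Hemk1 (a protein methyltransferase, -0.49, adjusted p = 0.0282) fell.

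Cacna2d2, an auxiliary subunit of voltage-gated calcium channels, rose 1.88-fold (difference 0.91, SE 0.17, adjusted p = 0.0317). Its differences of 0.92, 0.91 and 0.91 at the 3 stages were nearly equal. One knockout array fell short: E18.5 Htr3a-KO arrays read 10.16, 9.69 and 8.65, and the controls 8.66, 8.77 and 8.35. It was the 1 of 25 voltage-gated channel genes that passed. Further genes of the chromosome were Nedd4 (a ubiquitin ligase of growth cones and synapses, 0.59, adjusted p = 0.0318), Arpp19 (a phosphatase inhibitor, -0.31) and Stt3b (an oligosaccharyltransferase subunit, 0.37). A targeted allele is inherited with the DNA around it. Whether linked sequence that differs between the genotypes, or probes that lie on such sequence, has a part in these values was not tested.

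**Figure D3:**
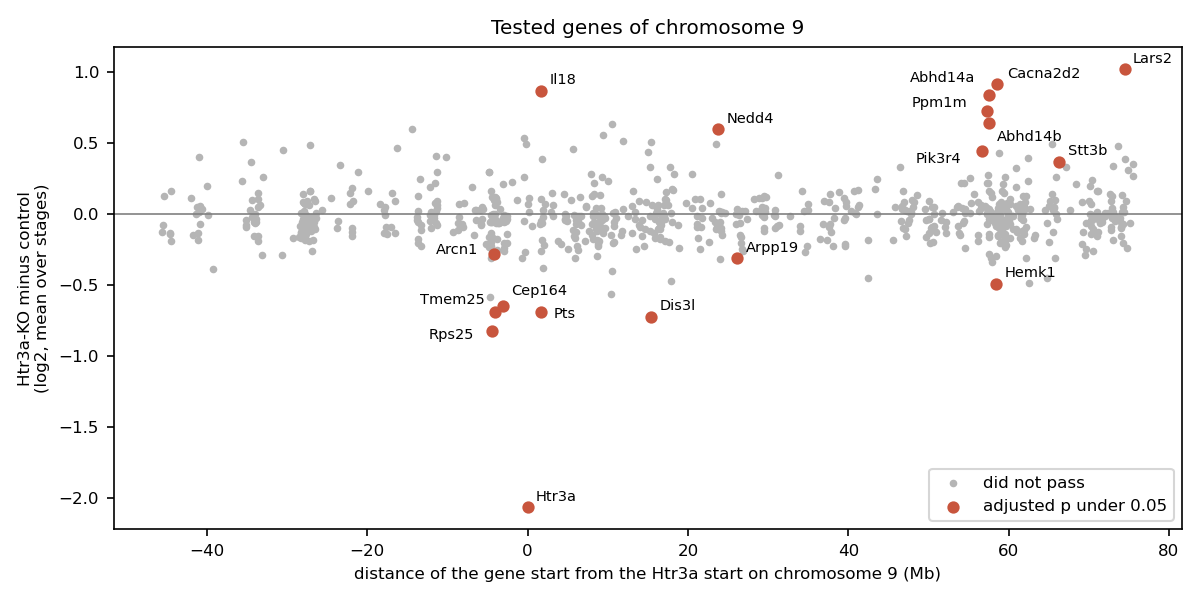
Htr3a-KO minus control difference (log2, mean over stages, vertical axis) of the tested genes of chromosome 9 against distance from Htr3a in Mb, with the 18 genes that passed in red and named. Called genes close to Htr3a lie mostly below 0, and the group at the far end, from Pik3r4 to Lars2, lies above 0 except for Hemk1.

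Among the genes that passed outside chromosome 9, the largest differences were those of a pair of MHC genes. H2-K1 and H2-D1 are the classical class I molecules, which show peptides at the cell surface. In neurons they are also known for roles in synapse and axon development, and they vary strongly between mouse strains. H2-K1 rose 2.67-fold (difference 1.42, SE 0.18, adjusted p = 0.00246), by 1.52, 1.80 and 0.92 at the 3 stages. At E14.5 the knockout values were 10.06, 8.83 and 8.45 against 7.54, 7.36 and 7.87 in controls, and at E18.5 they were 9.88, 9.81 and 9.58 against 8.23, 7.96 and 7.68. At P2 they were 9.75, 10.24 and 10.34 against 9.60, 9.17 and 8.79. The genotypes did not overlap at any stage, with the closest approach at P2.

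H2-D1 rose 2.27-fold (difference 1.19, SE 0.21, adjusted p = 0.0282), by 1.32, 1.51 and 0.72. At P2 its Htr3a-KO arrays read 9.24, 10.17 and 10.07 and its controls 9.54, 9.02 and 8.75, an overlap of 1 array. The call was lost without any 1 of 8 arrays (adjusted p 0.0524 to 0.0723). The other probe sets of H2-K1 that passed the filter gave 1.10 and 0.63, and those of H2-D1 gave 1.06, 0.84, 1.11 and -0.06. Class I genes are so alike that probes for one can bind RNA of another, so which of these genes the signal belongs to is uncertain.

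The same 4 motifs are found upstream of both genes, and the 250 bases before each start are shown. They were picked because the probe set used for each gene passed and the genes lie in one region of chromosome 17. The sequences are from RefSeq on GRCm38.p6, H2-K1 at chr17:34000348-34000597 on the minus strand and H2-D1 at chr17:35262844-35263093 on the plus strand. Capitals mark the general NF-kappaB motif, of which 2 overlapping matches make up the first run, TTTCNCTTC (an element of the interferon response), TGACGC (a sequence like one arm of the cyclic AMP response element) and CCAAT (bound by NF-Y), each searched on both strands, with no overlap between different motifs.
H2-K1: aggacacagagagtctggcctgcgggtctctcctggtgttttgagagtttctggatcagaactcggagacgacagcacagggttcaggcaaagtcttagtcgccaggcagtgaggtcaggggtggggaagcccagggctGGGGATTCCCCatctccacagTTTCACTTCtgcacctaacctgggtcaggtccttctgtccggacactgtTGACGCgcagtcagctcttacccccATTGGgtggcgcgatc
H2-D1: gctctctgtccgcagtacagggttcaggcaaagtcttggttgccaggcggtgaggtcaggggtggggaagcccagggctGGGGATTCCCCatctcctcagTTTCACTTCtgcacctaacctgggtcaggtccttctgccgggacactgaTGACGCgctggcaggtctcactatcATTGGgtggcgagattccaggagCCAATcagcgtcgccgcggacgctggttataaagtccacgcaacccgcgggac
The motif letters were chosen after both sequences had been read, so their presence here is a description. Of 27025 promoters of this length 7.01% held the first motif, 2.03% the second, 6.14% the third and 34.5% the fourth, and 5 held all 4, those of H2-K1, H2-D1, H2-M3, Rab28 and Rpusd2. At the best ungapped alignment 166 of 190 bases were identical (87.4%).

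The rest of the antigen-presentation pathway gave smaller values. Of 11 class I and antigen-processing genes tested, 2 rose, H2-K1 and H2-D1, and the median was 0.04 against -0.03 over all genes. B2m, the light chain of class I molecules, gave 0.35 (adjusted p = 0.567), Tap1, a subunit of the peptide transporter, 0.14 (adjusted p = 0.541), and Tapbp, which loads the peptide, -0.17. None of 17 interferon response genes passed (median 0.09), and 3 of them were higher at an unadjusted p under 0.05, the largest being Ifitm3 at 0.64 (adjusted p = 0.327).

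Slco1c1 and Mfsd2a, transporters of the blood-brain barrier, rose together. Slco1c1, which carries thyroxine and is made by brain endothelium and astrocytes, rose 2.15-fold (difference 1.10, SE 0.17, adjusted p = 0.0130). At E14.5 the knockout values were 7.23, 7.96 and 6.36 and the control values 5.71, 5.21 and 5.83, at E18.5 9.64, 9.43 and 9.56 against 8.09, 8.76 and 8.60, and at P2 11.55, 11.73 and 11.76 against 10.70, 11.00 and 11.38. No stage overlapped, and the difference was 1.60, 1.06 and 0.65 in stage order. Mfsd2a, which brings fatty acids bound in lysolipids into the brain, rose 1.56-fold (difference 0.64, SE 0.12, adjusted p = 0.0297), by 0.70, 0.64 and 0.59, also without overlap. The Mfsd2a call was lost without any 1 of 13 arrays (adjusted p 0.0545 to 0.0824).

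Both genes belong to the list of endothelial and mural cell genes, most of which read higher in Htr3a-KO. Of its 15 tested genes 14 had positive differences, as did 37.6% of all genes, and 2 passed, while 12 were higher and 0 lower at an unadjusted p under 0.05, against 4.01% and 7.19% of all genes. The median was 0.58 against -0.03 over all genes, with 0.70 at E14.5, 0.64 at E18.5 and 0.36 at P2. Genes that did not pass include the pericyte receptor gene Pdgfrb at 1.34 (adjusted p = 0.132), the pericyte matrix gene Vtn at 0.83 (adjusted p = 0.353), the tight junction gene Cldn5 at 0.95 (adjusted p = 0.353) and the endothelial receptor gene Kdr at 0.69 (adjusted p = 0.353). The summed level of the list spanned 10.64 to 11.25 in controls and 11.34 to 12.39 in Htr3a-KO at E14.5, and 11.13 to 11.88 against 11.91 to 12.37 at E18.5. At P2 it was 12.67 to 13.37 against 12.91 to 13.81, where the genotypes overlapped. More cells of a type in a sort and more RNA per cell cannot be told apart in these pooled samples, and the part of endothelial RNA in the rises of Slco1c1 and Mfsd2a was not tested.

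Astrocyte and progenitor lists also had positive medians without any gene passing. Of 12 astrocyte genes 7 were higher at an unadjusted p under 0.05 (median 0.46), among them the water channel gene Aqp4 at 0.84 (adjusted p = 0.295), the gap junction gene Gja1 at 0.72 (adjusted p = 0.353) and Apoe at 0.77 (adjusted p = 0.327). Of 19 neural progenitor genes 8 were higher (median 0.28), with the matrix gene Tnc at 0.91 (adjusted p = 0.144) and the Notch target Hes5 at 0.77 (adjusted p = 0.344). Summed astrocyte levels overlapped between genotypes at E14.5 (11.92 to 12.98 in controls, 12.38 to 13.16 in Htr3a-KO) and at P2. At E18.5 they did not, at 11.83 to 12.66 against 12.78 to 13.10. Immediate early genes, which respond to activity and to handling, gave 5 of 29 higher at an unadjusted p under 0.05 (median 0.15), with Ccn1 at 0.79 (adjusted p = 0.154) and Egr1 at 0.40 (adjusted p = 0.175).

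The list of striatal projection neuron genes had a negative median. Of 14 tested none passed, 5 were lower and 0 higher at an unadjusted p under 0.05 (7.19% and 4.01% of all genes), and the median was -0.35. Without E14.5 control array 3 the median was -0.54, the lowest of the fits without single arrays, which ran to -0.24. Over all alternatives it ran from -0.58 to -0.16. Rarb, a retinoic acid receptor of the striatum, gave -1.08 (adjusted p = 0.353), the neuropeptide gene Tac1 -0.91 (adjusted p = 0.443) and Foxp2 -0.45 (adjusted p = 0.384). The list's median was -0.78 at E14.5, 0.12 at E18.5 and -0.32 at P2, so the mean came mostly from the first stage. The summed level at E14.5 was 13.95 to 15.30 in controls and 13.72 to 14.20 in Htr3a-KO, which overlapped.

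**Figure D4:**
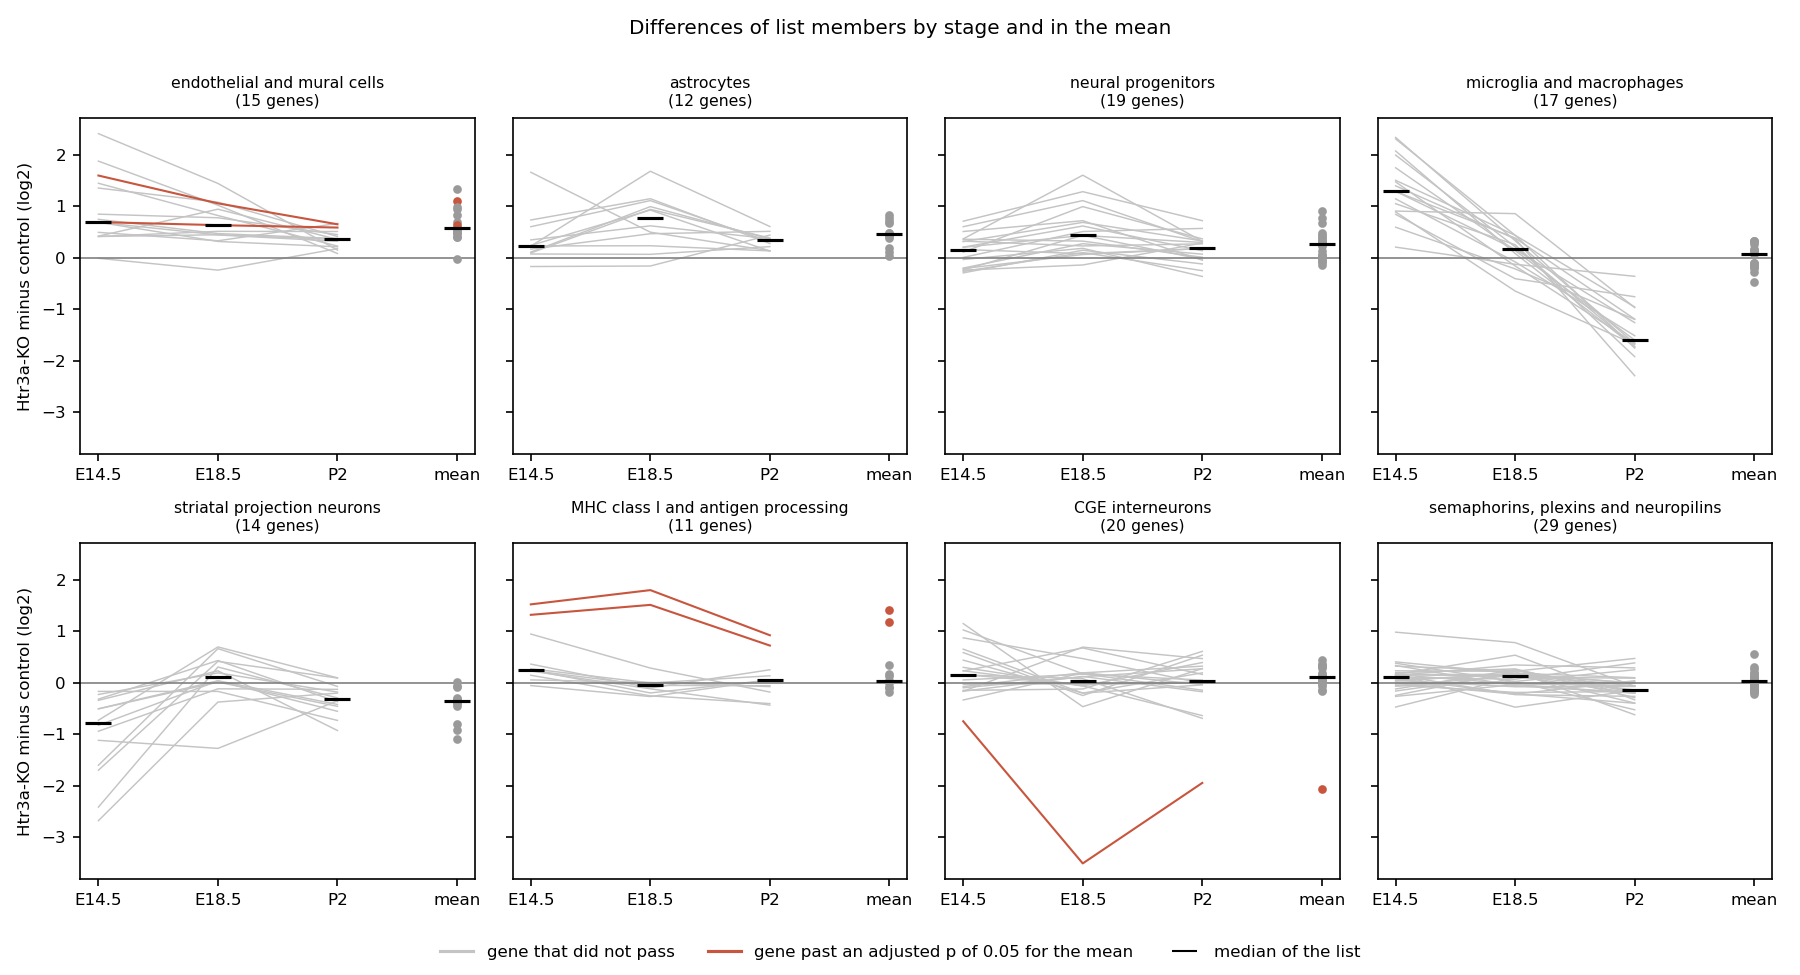
Htr3a-KO minus control difference (log2, vertical axis) of the tested members of 8 gene lists at each stage and in the mean, 1 line per gene, red for genes that passed in the mean and black bars for the list's median. Most endothelial and mural genes lie above 0 at all stages, striatal genes are lowest at E14.5, and microglial genes cross from 1.29 at E14.5 to -1.60 at P2 with a mean near 0.

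Of the 20 tested genes that mark CGE interneurons Htr3a was the 1 that passed. Among the 20, 15 had positive differences, as did 37.6% of all genes. At an unadjusted p under 0.05, 3 were higher and 1, Htr3a, was lower, against 4.01% and 7.19% of all genes. The median of this list was 0.11, with values such as Reln at 0.35 (adjusted p = 0.440), Ndnf of neurogliaform cells at 0.44 (adjusted p = 0.384), Vip at 0.11 and the migration factor Prox1 at 0.03. None of 8 genes of GABA synthesis and transport passed, and Gad1 and Gad2 gave -0.28 (SE 0.17, adjusted p = 0.562) and -0.39 (SE 0.25, adjusted p = 0.572). At E14.5 the control arrays read 12.34, 12.29 and 10.88 for Gad1 and 11.57, 11.38 and 9.34 for Gad2, so control array 3 stood below the other two. Without it the differences were -0.44 (adjusted p = 0.0767) and -0.63 (adjusted p = 0.0730). These were the largest falls among the 18 fits that each left out 1 array, which ran to -0.20 for Gad1 and -0.26 for Gad2. Both adjusted p-values were also the lowest of the 35 alternatives, and neither gene passed in any of them. Of the 8 serotonin genes tested Htr3a alone passed, and Maoa, which degrades serotonin, gave 0.18 (adjusted p = 0.353).

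Semaphorins and their plexin and neuropilin receptors steer migrating interneurons, and none of their genes passed in the mean. Of 29 semaphorin, plexin and neuropilin genes none passed, 2 were higher and 1 lower at an unadjusted p under 0.05, and the median was 0.03. By stage the list's median was 0.11 at E14.5, 0.13 at E18.5 and -0.14 at P2. Plxna4, a plexin receptor, gave -0.02 (SE 0.15, adjusted p = 0.978), its ligand Sema3a -0.17 (SE 0.14, adjusted p = 0.667) and the shared co-receptor Nrp1 0.03 (SE 0.17, adjusted p = 0.971). Plxna4 read 9.61 to 10.60 in controls and 9.17 to 10.89 in Htr3a-KO, so the knockout range enclosed that of the controls. Missing the threshold does not show that these genes were equal in the genotypes. None of 39 other guidance genes and none of 39 migration and cytoskeleton genes passed, with both medians at -0.03. Neither did any of 23 GABA and glutamate receptor genes, 29 synaptic genes, 26 cadherin genes or 30 cell cycle genes.

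No gene passed in the lists that follow. Of 19 cholesterol synthesis genes 4 were lower at an unadjusted p under 0.05 (median -0.11), where 7.19% of all genes were lower, among them Insig1, which holds back synthesis, at -0.28 (adjusted p = 0.431) and the regulator Srebf2 at -0.17 (adjusted p = 0.433). Of 20 heat shock and chaperone genes 3 were lower (median -0.09), with Hspa1a, which heat and handling induce, at -0.91 (adjusted p = 0.443). Of 24 calcium signalling and CREB target genes 2 were higher and 1 lower (median 0.01), the kinase gene Camk4 at 0.64 (adjusted p = 0.276) and the growth factor gene Bdnf at -0.34 (adjusted p = 0.440) among them. All 6 nicotinic acetylcholine receptor genes had negative differences (median -0.09), as did 62% of all genes, and Chrna3 gave -0.23 (adjusted p = 0.344). Medians were -0.08 for 17 apoptosis genes, -0.01 for 41 oxidative phosphorylation genes, 0.00 for 24 chromatin genes, -0.07 for 23 splicing regulators, -0.06 for 18 imprinted genes and 0.06 for 6 genes of ion transport.

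Further cell types gave no calls. Medians were -0.07 for 17 genes of excitatory neurons, 0 for 11 of medial ganglionic eminence interneurons, 0.19 for 11 of the oligodendrocyte lineage, 0.20 for 6 erythroid genes, 0.12 for 8 of meninges and fibroblasts and 0.44 for 5 sex-linked genes. Pdgfra, the receptor of oligodendrocyte precursors, gave 0.48 (adjusted p = 0.322).

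The remaining falls outside chromosome 9 were single genes of varied function. Mid1, an X-linked ubiquitin ligase that binds microtubules, fell 2.24-fold (difference -1.16, SE 0.18, adjusted p = 0.0130), by -0.96, -0.79 and -1.73. At P2 its Htr3a-KO arrays read 7.79, 7.44 and 7.55 and its controls 9.08, 9.36 and 9.54, far apart. At E18.5 they read 8.18, 7.85 and 8.63 against 8.65, 8.49 and 9.90, and overlapped. Slc25a29, a mitochondrial carrier of basic amino acids, fell by 0.53 on the log2 scale (SE 0.07, adjusted p = 0.00266). Its P2 knockout arrays, at 9.22, 9.23 and 9.22, were almost identical and below the 9.75, 9.86 and 9.74 of controls. All 5 of its probe sets were lower, by -0.22 to -0.53.

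Falls were also seen in Abhd1, a hydrolase-fold gene (-0.70, adjusted p = 0.0469), and Taf5, a subunit of the general transcription factor TFIID (-0.52, adjusted p = 0.0332). Snapc3, of the complex that starts small nuclear RNA genes, gave -0.50 (adjusted p = 0.0297). Supt16, the large subunit of the FACT histone chaperone, rose by 0.64 (adjusted p = 0.0387), with overlap at E18.5 and P2. The 18 genes that passed beyond the naming rule had changes of 0.28 to 0.55 in size. These were smaller than those of the called genes named by the rule in the same direction. Those named here were chosen after their values were seen. Besides Arcn1, Arpp19, Pik3r4 and Stt3b of chromosome 9 they included Jarid2, of the Polycomb repressive complex (-0.39), the cholesterol exporter gene Abca1 (0.53), the transcription factor gene Klf15 (0.55), the estrogen receptor gene Gper1 (0.47) and the snoRNA host Snhg6 (0.46).

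The probe sets of a gene did not always move together. Of the 42 genes 21 had 1 probe set above the filter and 21 had more. For 13 of the latter another probe set moved in the same direction at an unadjusted p under 0.05, and for 8 none did. The 8 were Lars2, Nedd4, Supt16, Tmem25, Cep164, Pgm1, Pop1 and Il1rap. Nedd4 gave 0.59 in the probe set used and -0.05 and 0.06 in the others, Supt16 -0.01, Tmem25 0.02 and Cep164 0.32 and -0.12. Snapc3 had 1 other probe set that fell with it, at -0.59, and a further pair at 0.18 and 0.36. Arpp19, counted among the 13, gave -0.30 and 0.29 in its other probe sets. The opposite values of Arpp19 (0.29), Cep164 (0.32), Snapc3 (0.36) and Lars2 (-0.28) each had an unadjusted p under 0.05 in limma.

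Single arrays decided many of the calls. A total of 15 genes passed whichever of the 18 arrays was left out, namely Htr3a, Lars2, Pts, Dis3l, Rps25, Tmem25, Cep164, Il18, Pik3r4, Abhd14a, Abhd14b, H2-K1, Slco1c1, Mid1 and Slc25a29, of which 11 are on chromosome 9. The other 27 lost their call without at least 1 array, each for 4 to 16 of the 18 arrays, at adjusted p-values of 0.0501 to 0.122. None of the 42 changed direction. With 1 whole stage left out, Htr3a, Lars2, Pts and Dis3l passed whichever stage it was.

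A difference between stages was not detected for any gene, although many profiles crossed. The interaction test called 0 genes at an adjusted p of 0.05 (0%), against 1033 at an unadjusted p under 0.05 (7.23%). In 261 genes (1.83%) the arrays did not overlap at some stage in one direction and at another stage in the other, so that the mean says little about them. Macrophage genes were the clearest of these, chosen here after their values were seen. F13a1, a transglutaminase of tissue macrophages, gave 1.93 at E14.5, 0.52 at E18.5 and -2.35 at P2, with a mean of 0.03. Its E14.5 Htr3a-KO arrays read 7.59, 7.32 and 7.63 against 4.95, 5.44 and 6.36, and its P2 arrays 5.18, 5.64 and 5.80 against 9.21, 8.11 and 6.36 in controls.

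Mrc1, the mannose receptor of macrophages, gave 1.40, 0.37 and -2.29, and the chemokine gene Pf4 1.05, 0.26 and -1.92 (interaction adjusted p = 0.637 for Pf4). All 17 tested microglia and macrophage genes had a positive difference at E14.5 and a negative one at P2, as did 30.9% of all genes, with list medians of 1.29, 0.17 and -1.60 and 0 called in the mean (median 0.07, 0 at an unadjusted p under 0.05). Their summed level was 10.51 to 12.13 in controls and 11.71 to 14.05 in Htr3a-KO at E14.5, and 11.66 to 14.78 against 11.23 to 12.11 at P2, overlapping at both stages. Of 11 tested interneuron genes of the medial ganglionic eminence 6 had a positive difference at E14.5 and a negative one at P2, against 30.9% of all genes. Such crossing was not particular to these lists. It was seen in 10 of 17 excitatory lineage genes, 15 of 29 semaphorin, plexin and neuropilin genes and 13 of 25 voltage-gated channel genes. The count was 18 of 39 for migration and cytoskeleton genes, but 0 of 12 for astrocyte genes and 0 of 15 for endothelial and mural genes. The following pair of medial ganglionic eminence genes was chosen after the values were seen. Lhx6, the transcription factor of that lineage, gave 0.62, -0.16 and -1.16, and the neuropeptide gene Sst 0.53, -1.14 and -0.45.

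Across the 14292 genes the stage differences, which come from separate arrays, were weakly related. Their correlation was 0.176 between E14.5 and E18.5, 0.230 between E18.5 and P2 and -0.0773 between E14.5 and P2. This describes genes of 3 comparisons and is no test, since genes are not independent replicates.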

How the data were processed

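RNA of 18 pooled samples was hybridised to Affymetrix Mouse Genome 430 2.0 arrays. Per the labels' design text, the authors normalised the signals in Partek Genomic Suite 6.6 beta by the RMA method (robust multi-array average), and the deposited values are log2 intensities, used here unchanged. The members and gene lists were chosen with earlier results of these data known. Probe sets in the lowest 30% of means (under 5.255) were left out and the brightest probe set stood for each gene, leaving 14292 genes. The array annotation named 1 gene for 34945 of 45101 probe sets, several for 932 and none for 9160, and 64 were controls. limma 3.58.1 in R 4.3.3 fitted 1 mean per group (12 residual degrees of freedom). The contrast was the mean of the 3 stage differences, with Benjamini-Hochberg adjustment over all genes, and an F test compared stages. The 37 lists are given as counts and medians, without a set test. Named genes were 6 fixed genes, the called genes with 1 sign at all stages that rose or fell most (12 each way), and up to 3 called members of each list, and other genes were named after their values were seen. Motifs were matched letter by letter. The fit was tested on simulated data. The number of arrays limits the precision. Alternatives covered the filter, probe set choice, normalisation, variance model, array weights, blocks, thresholds, windows, stages and single arrays.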

Additional observations from a re-analysis of the deposited data

Results flagged for a closer look

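A signal was also present in probe sets to which the annotation gives no gene or several genes, and which no comparison above used. Of 5426 such probe sets above the filter 24 passed an adjusted p of 0.05 in the mean over stages, when all 31530 probe sets were tested together, 17 higher in Htr3a-KO and 7 lower. In all, 95 of the 31530 passed. The largest rise of an unnamed probe set was from 5.02 to 6.42 (difference 1.40, SE 0.10, adjusted p = 4.98e-06), and the largest fall from 7.46 to 6.06 (difference -1.40, SE 0.11, adjusted p = 6.03e-06). Their transcripts are unnamed here.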

How the results depend on the processing

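Direction did not change under any alternative for the 42 genes: in 1469 combinations of gene and alternative the call was kept in 963 and lost in 506. The filter, variance model, additive model, blocks and threshold leave a gene's difference as it was, so direction could not change there. An adjusted p under 0.10 also could not lose a call. With all probe sets tested, each gene was still read from its brightest one. Other probe sets of some genes went the other way, as given above. Htr3a kept its call in all 35 alternatives (-2.73 to -1.35, adjusted p 2.25e-07 to 0.00886), and in -2.18 to -1.99 without single arrays. The count of 42 genes was 69 probe sets of 60 genes when all probe sets were tested, 318 with array weights, 67 at an adjusted p under 0.10, 20 at 1.5-fold or more, and 8, 7 and 13 without E14.5, E18.5 and P2. Without single arrays it ran from 17 to 128. P2 Htr3a-KO array 3 left out gave 17, and either of E14.5 control arrays 1 and 2 or E18.5 Htr3a-KO array 3 gave 19. E14.5 Htr3a-KO array 1 or P2 control array 1 gave 20, E18.5 control array 1 gave 21, and E18.5 Htr3a-KO array 2 gave 22. E18.5 control array 2 or P2 Htr3a-KO array 2 gave 26, and E14.5 control array 3 gave 128. The interaction count of 0 was 8 with array weights, 1 at an adjusted p under 0.10 and 0 to 13 without single arrays, with 13 again without E14.5 control array 3. The 8 called genes within 20 Mb of Htr3a became 21 with array weights, 18 over the whole chromosome, and 3, 4 and 5 without E14.5, E18.5 and P2, against 7 to 12 without single arrays. On all of chromosome 9 the 18 became 44 with array weights, 5, 5 and 9 without E14.5, E18.5 and P2, 9 with a replicate block within stages and 11 to 24 without single arrays. The cause of these moves was not tested. Fits that leave arrays out also hold fewer arrays, and their counts went both down and up. Leaving out both arrays set apart by sex-linked RNA was chosen after seeing the data.

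The labels do not say that replicate numbers pair litters. Of 9 same-numbered pairs 2 had deviations correlated above 0.1 (-0.54 to 0.30). With 3 arrays per group these correlations cannot decide whether the numbers pair litters, and the main fit used no block. With a replicate block within stages 14 genes passed, 5 of them within 20 Mb of Htr3a, and with a replicate block across stages 40 passed.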
